A study of Mus musculus with 9 samples.

Results

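Fatty acid oxidation in the kidney was followed here through 31 genes: the enzymes and carriers of mitochondrial and peroxisomal beta-oxidation, the nuclear receptor Ppara (PPAR alpha) and 2 further regulators. They were chosen by symbol from the 54532 genes of the deposited table, and each of the 31 symbols matched 1 row. All 31 passed the filter on low values used for testing (FPKM, reads per kilobase of gene length and per library constant, of at least 1 in at least 3 libraries). The kidneys were those of c57BL/6j males, 4 months of age, and each of 3 groups had 3 libraries. Ground controls (GC1 to GC3) had no treatment. Hindlimb Unloaded mice (HU1 to HU3), whose hind limbs were lifted off the ground as a model of disuse, received vehicle. The PBA-treated group (PBA1 to PBA3) was unloaded too and received the chemical chaperone 4-PBA (4-phenylbutyric acid), injected into the peritoneum at a daily 100 mg/kg. As the ground controls had no vehicle, unloading and vehicle cannot be told apart, and "unloaded" stands for both. The labels do not say whether a library is 1 animal, so the limma p-values measure the spread between these libraries, estimated over all 3 groups.

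As background, the proximal tubule draws most of its energy from fatty acids. Long-chain fatty acids are activated to acyl-CoA, passed into mitochondria as carnitine esters and shortened in a repeated cycle of dehydrogenation, hydration, a second dehydrogenation and thiolysis. Very long and branched chains are first shortened in peroxisomes. PPAR alpha, bound by fatty acids and paired with RXR, raises transcription of many genes of both pathways, and PGC-1 alpha (Ppargc1a) acts as its coactivator.

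The depth of the libraries and their content set limits. Reads assigned to genes, recovered from the deposited values, ranged from 7595631 to 15141784 per library. The mitochondrial genome took 63.7% to 79.3% of them in the unloaded libraries, 49.7% in GC3, 67.1% in PBA3 and 13.7% to 18.9% in the other 4. Member genes had from 5 reads (Ppara in PBA3) to 15856 reads (Acadm in GC2). Kidney markers were present: all 18 proximal tubule markers passed the filter, and 10 of them (55.6%) fell with unloading while 0 rose. Of all genes tested 4.9% fell and 5.32% rose. The 8 fibroblast and mural cell markers summed to 40.1 to 92.1 FPKM in ground controls, 139.6 to 270.9 FPKM in unloaded libraries, and 387.3 FPKM in PBA3. They did not move together: 6 had log2 differences above 0 after unloading and 2 below 0, Acta2 (-1.11) and Myh11 (-0.75). Only Pdgfra was called, as higher. Acta2 averaged 38.2 FPKM in ground controls and 16.4 FPKM after unloading, and made up 155.4 FPKM of the sum in PBA3. Without the very abundant Kap, the other 17 proximal tubule markers summed to 2593 to 3169 FPKM in ground controls and 496.8 to 750.2 FPKM in unloaded libraries. With 4-PBA these 17 markers reached 2677 FPKM (PBA1), 2901 FPKM (PBA2) and 815.1 FPKM (PBA3). Lower sums after unloading were not limited to the proximal tubule: podocyte markers summed to 34.0% of ground controls, thick ascending limb to 49.0% and distal convoluted tubule to 48.7%. Of these, 2 of 5, 1 of 6 and 0 of 4 markers had log2 differences above 0. Collecting duct and intercalated cell markers summed to 89.1% and endothelial ones to 134.2%. In whole tissue, fewer tubule cells and less RNA per cell cannot be told apart. The part of the mitochondrial share and of the tubule and fibroblast markers in the results below was not tested.

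The promoters of the members whose values the results turn on are shown first, as they differ in kind. They are the 250 bases before the start of the gene in RefSeq (GRCm38.p6, the same assembly as mm10), 5′ to 3′ on the strand of the gene. Capitals mark GGGCGG, the GC box that Sp1-type factors bind, and AGGTCA, the half-site of nuclear receptors such as PPAR alpha, each searched on both strands.
Cpt2 promoter, chr4:107923590-107923839, - strand: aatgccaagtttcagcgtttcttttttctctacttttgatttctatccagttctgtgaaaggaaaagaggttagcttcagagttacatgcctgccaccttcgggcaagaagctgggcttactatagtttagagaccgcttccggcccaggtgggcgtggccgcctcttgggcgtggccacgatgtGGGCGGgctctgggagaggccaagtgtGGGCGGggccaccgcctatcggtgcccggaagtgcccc
Acox3 promoter, chr5:35582784-35583033, + strand: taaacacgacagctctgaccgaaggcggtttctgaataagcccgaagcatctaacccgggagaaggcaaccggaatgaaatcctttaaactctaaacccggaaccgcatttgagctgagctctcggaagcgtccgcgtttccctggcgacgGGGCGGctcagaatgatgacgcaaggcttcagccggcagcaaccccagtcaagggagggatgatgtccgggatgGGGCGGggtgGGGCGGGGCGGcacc
Acaa1b promoter, chr9:119157094-119157343, - strand: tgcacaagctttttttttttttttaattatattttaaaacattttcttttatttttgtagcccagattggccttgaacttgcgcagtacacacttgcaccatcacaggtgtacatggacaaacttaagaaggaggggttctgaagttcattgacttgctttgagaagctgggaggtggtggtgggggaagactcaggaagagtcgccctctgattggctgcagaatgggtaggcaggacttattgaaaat
Acaa1a promoter, chr9:119341044-119341293, + strand: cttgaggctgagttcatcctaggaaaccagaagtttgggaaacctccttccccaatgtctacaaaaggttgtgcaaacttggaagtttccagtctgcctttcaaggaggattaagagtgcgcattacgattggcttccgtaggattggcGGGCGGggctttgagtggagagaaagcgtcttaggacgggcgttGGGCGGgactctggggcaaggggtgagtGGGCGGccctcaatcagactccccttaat
Ppara promoter, chr15:85735526-85735775, + strand: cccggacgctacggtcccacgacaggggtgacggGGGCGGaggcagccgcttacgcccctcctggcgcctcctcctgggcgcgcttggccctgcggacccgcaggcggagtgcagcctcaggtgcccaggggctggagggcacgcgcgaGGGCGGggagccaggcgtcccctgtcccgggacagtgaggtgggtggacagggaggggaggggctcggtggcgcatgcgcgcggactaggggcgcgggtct
Cpt1a promoter, chr19:3323051-3323300, + strand: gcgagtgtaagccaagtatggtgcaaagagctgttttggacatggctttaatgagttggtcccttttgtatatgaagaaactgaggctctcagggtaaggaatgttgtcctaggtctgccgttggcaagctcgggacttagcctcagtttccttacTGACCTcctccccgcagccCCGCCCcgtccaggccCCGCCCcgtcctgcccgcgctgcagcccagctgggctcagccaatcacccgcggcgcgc
In these windows the paralogous thiolase genes Acaa1a and Acaa1b differ: Acaa1a has 3 GC boxes and Acaa1b has 0. Acox3 has 4, which overlap in part, and Cpt2, Ppara and Cpt1a have 2 each. Of the 6 promoters shown only Cpt1a holds the half-site, 94 bases before the start. For Acaa1a, Ppara and Cpt2 the RefSeq start lies inside the gene as deposited. Acaa1a and Ppara begin there at 119339676 and 85734983, and Cpt2, on the minus strand, at 107923610. The windows of Acaa1a and Ppara are thus not upstream of the deposited start, and that of Cpt2 is so only in part. These windows depend on the annotation used. RefSeq promoters were found for 27 of the 31 members (29 promoters, as some genes have 2). Over the 300 bases from 250 before to 50 after the start, AGGTCA was found in 4 of the 29 (13.8%; Acadm, Acadvl, Cpt1a and Echs1) and in 16.3% of all 32851 promoters. The form of a PPAR response element, AGGNCA repeated after 1 further base, was found in 0 of the 29 and in 0.381% of all promoters. GGGCGG was found in 20 of the 29 (69.0%), in 35.7% of all promoters and in 46.2% of those of protein-coding genes. These are matches of letters in a short window and no more.

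**Figure D1:**
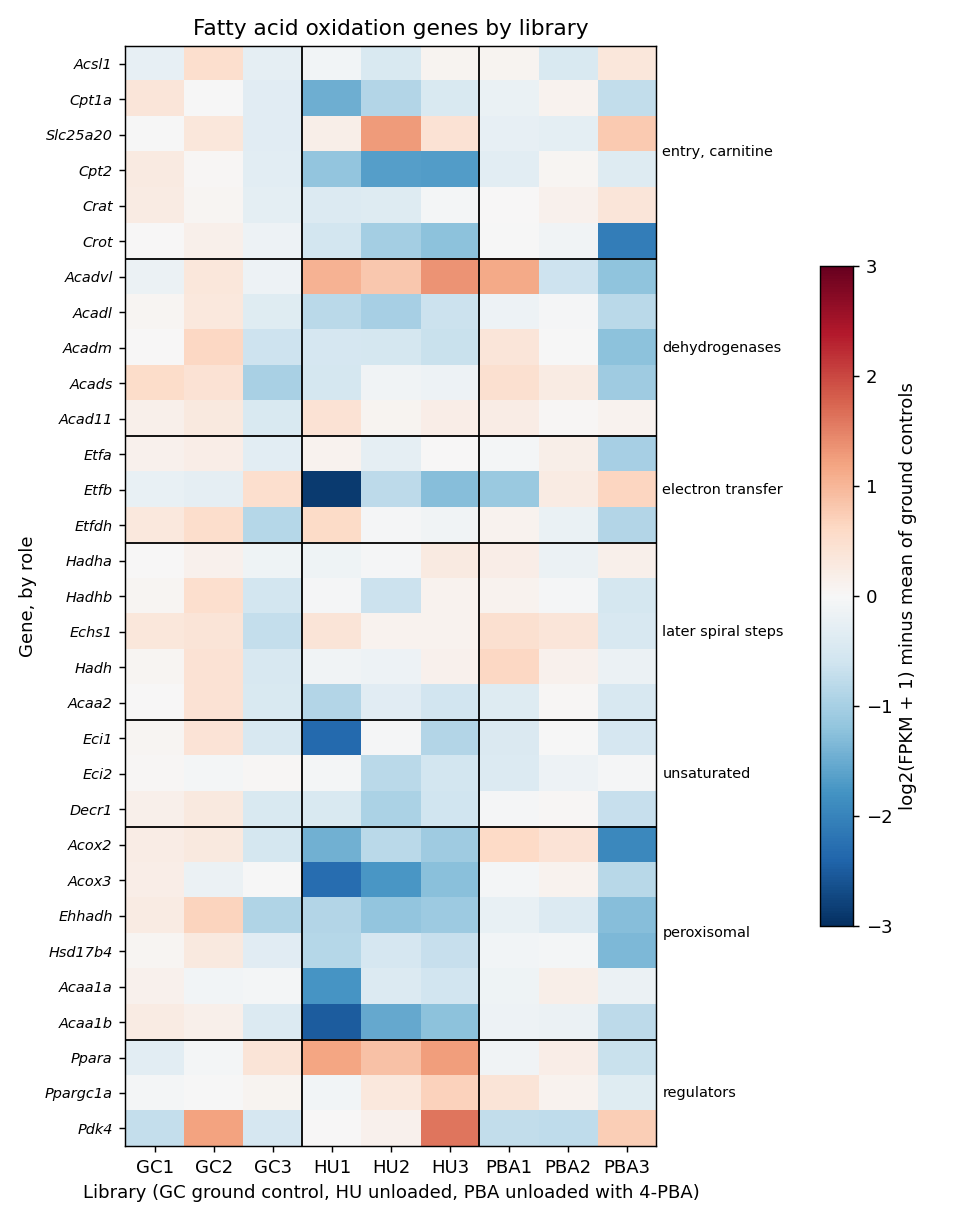
Heat map of the 31 genes (rows, by role) in the 9 libraries (columns): log2(FPKM + 1) minus the mean of the 3 ground controls, blue lower and red higher. The peroxisomal rows are blue in the 3 unloaded libraries, where the summed peroxisomal level was 92.6 to 125.7 FPKM against 185.0 to 331.1 FPKM in ground controls, and PBA3 is bluer than PBA1 and PBA2.

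In ground controls the members covered a wide range of levels per kilobase. Acadm, the medium-chain acyl-CoA dehydrogenase, had 117 ± 49.1 FPKM, Acaa2, the mitochondrial thiolase, 114.5 ± 34.8 FPKM and Acadl, the long-chain dehydrogenase, 109.9 ± 25.3 FPKM (SD, n = 3 each). These 3 levels differed by less than their spread. At the low end stood Ppara with 0.965 ± 0.491 FPKM and Ppargc1a with 4.07 ± 0.228 FPKM (SD, n = 3 each). A mean of at least 20 FPKM was reached by 16 members. The deposited gene length was the union of all annotated exons for 28 of 31 members. For Hadha and Echs1 it was 8730 and 8286 bases, and such lengths lower the FPKM of a gene whose main transcript is shorter, so the order between genes is approximate.

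The first comparison asked how these genes differed in unloaded kidneys. Cpt2, Acox3 and Acaa1b fell, to 0.340, 0.243 and 0.303 of their mean FPKM in ground controls, and no member rose. All 3 calls were lost without GC1, without GC2 and with the mitochondrial share as a covariate, and those of Acox3 and Acaa1b also without GC3 and with no filter on low values. Over all genes the 620 called lower became 29, 117, 51, 50 and 99 in these settings, in that order. The peroxisomal branch and the carnitine shuttle held all 3 members called. The trifunctional protein genes Hadha and Hadhb stayed within 0.2 of 0 on the log2 scale. Called in either direction were 3 of 31 members, where 10.2% of all genes were. Of the 31 members 3 fell in limma (9.68%), where 4.9% of the 12642 genes tested fell. None rose in limma at the adjusted threshold, where 5.32% of all genes did. At an unadjusted limma p under 0.05 there were 1 higher and 8 lower members, together 29.0% of them, where 29.8% of all genes were. By direction, 25.8% of members and 15.1% of all genes were lower, and 3.23% and 14.7% were higher. Limma-voom on recovered reads called 1 member higher, Ppara, and 3 lower, Cpt2, Acox3 and Acaa1b. Over all genes it called 845 higher and 479 lower. The members' median log2 difference was -0.47, against -0.03 for all genes, and 22 of 31 were below 0, where 51.8% of all genes were. In 11 members (35.5%) every unloaded library lay below every ground control, where 19.4% of all genes did so, and in 2 (6.45%) every one lay above, where 18.3% of all genes did.

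**Figure D2:**
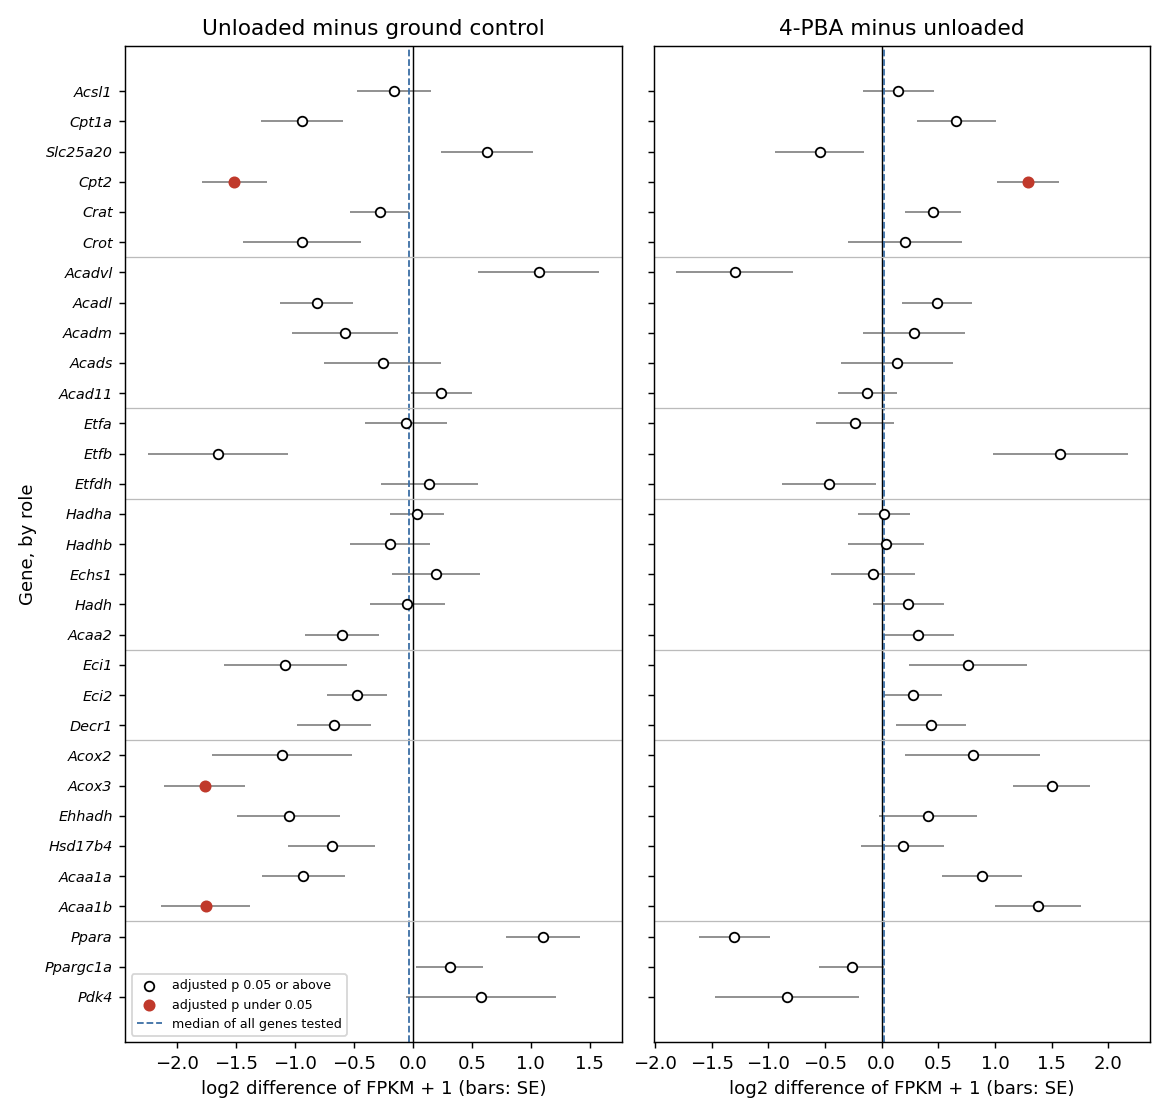
Log2 differences of FPKM + 1 with their SE for the 31 genes, by role: unloaded minus ground control on the left and 4-PBA minus unloaded on the right. Filled red points passed the threshold (Cpt2, Acox3 and Acaa1b on the left, Cpt2 on the right), open points did not, and the dashed line is the median of all genes tested (-0.03 and 0.02).

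The carnitine shuttle begins with Cpt1a, which forms acylcarnitine at the outer mitochondrial membrane and is the main control point of the pathway. Cpt1a had 45.5, 35.0 and 27.7 FPKM in ground controls, 12.1, 18.7 and 25.6 FPKM in HU1, HU2 and HU3, and 30.6, 38.1 and 20.9 FPKM in PBA1, PBA2 and PBA3. The unloaded libraries lay below all ground controls, but GC3 and HU3 were close, and PBA3 lay among the unloaded ones. Its log2 difference after unloading was -0.94 ± 0.35 (SE; limma adjusted p = 0.110).

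Cpt2, which turns acylcarnitine back into acyl-CoA inside the mitochondrion, lies on mm10 chromosome 4 (107903981 to 107923610, minus strand; ENSMUSG00000028607). It had 70.4, 60.2 and 46.9 FPKM in ground controls, 25.0, 17.9 and 17.5 FPKM in HU1, HU2 and HU3, and 46.4, 61.2 and 44.4 FPKM in PBA1, PBA2 and PBA3. All 6 other libraries, GC3 and PBA3 among them, lay above the 3 unloaded ones. The log2 difference after unloading was -1.51 ± 0.27 (SE; limma adjusted p = 0.0157). It rested on 133 to 357 reads in the unloaded libraries.

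The other carriers did not pass. Slc25a20, the carnitine-acylcarnitine translocase, had 7.07 ± 1.84 FPKM in ground controls against 11.9 ± 5.46 FPKM after unloading (SD, n = 3 each), with HU2 highest at 18.2 FPKM. Crot, the peroxisomal carnitine octanoyltransferase, had 48.4 ± 5.17 and 25.2 ± 6.48 FPKM (SD, n = 3 each) and differed by -0.94 ± 0.50 on the log2 scale (SE; limma adjusted p = 0.239). Its lowest value of all 9, 10.7 FPKM, was in PBA3. Crat, carnitine acetyltransferase, and Acsl1, a long-chain acyl-CoA synthetase, had log2 differences of -0.28 and -0.16.

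Among the acyl-CoA dehydrogenases, which carry out the first step of each cycle, none passed. Acadm had 110.6, 169.2 and 71.7 FPKM in ground controls, 77.4, 75.7 and 68.6 FPKM in HU1, HU2 and HU3, and 143.3, 109.1 and 46.6 FPKM in PBA1, PBA2 and PBA3. GC3 thus lay within the range of the unloaded libraries and PBA3 below it. The log2 difference was -0.57 ± 0.45 (SE; limma adjusted p = 0.415). Acadl had -0.81, with every unloaded library (53.7 to 68.7 FPKM) below every ground control (83.6 to 134.0 FPKM), and Acads, for short chains, -0.25. Acadvl, for very long chains, averaged 7.07 ± 1.74 FPKM in ground controls against 15.9 ± 3.27 FPKM after unloading (SD, n = 3 each). Its log2 difference was 1.07 ± 0.52 (SE; limma adjusted p = 0.199). PBA1, at 16.4 FPKM, was as high as the unloaded libraries, while PBA2 and PBA3 had 4.20 and 2.45 FPKM. Of the 2686 exonic bases of Acadvl 1151 are also exonic in Dvl2 on the other strand, so its reads are uncertain if strand was not used in counting. Acad11, which takes longer chains, had a log2 difference of 0.24.

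The dehydrogenases pass electrons to a flavoprotein made of the products of Etfa and Etfb, which Etfdh links to the respiratory chain. Etfa and Etfdh had log2 differences of -0.06 and 0.14. Etfb had 79.9, 77.7 and 132.4 FPKM in ground controls, 11.9, 53.8 and 37.9 FPKM in HU1, HU2 and HU3, and 42.9, 112.0 and 147.3 FPKM in PBA1, PBA2 and PBA3. The 2 subunits of 1 heterodimer thus had unlike values, with a wide spread in Etfb (log2 difference -1.65 ± 0.60, SE; limma adjusted p = 0.102). Of the 1164 exonic bases of Etfb 678 are shared with other annotated genes on the same strand, mainly Gm45233, so its level is uncertain.

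The genes of the later mitochondrial steps had differences with a median of -0.04. Hadha, the subunit of the trifunctional protein with hydratase and dehydrogenase activity, had 8.85, 9.61 and 7.90 FPKM in ground controls, 7.98, 8.50 and 10.7 FPKM in HU1, HU2 and HU3, and 10.2, 7.71 and 9.77 FPKM in PBA1, PBA2 and PBA3. The groups overlapped, although GC3 and PBA2 lay just below the lowest unloaded library, and the log2 difference was 0.04 ± 0.23 (SE; limma adjusted p = 0.937). Hadhb, the thiolase subunit, had -0.19, Hadh, the hydroxyacyl-CoA dehydrogenase, -0.04 and Echs1, the short-chain hydratase, 0.20. Of the 50-base words of Hadhb transcripts, 19.7% also occur in other genes, mainly Gm13910. Acaa2 differed by -0.60 ± 0.31 (log2, SE; limma adjusted p = 0.228).

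Eci1, Eci2 and Decr1, which prepare unsaturated chains for the cycle, had log2 differences of -1.08, -0.47 and -0.67, none past the threshold. Eci1 varied widely among unloaded libraries, with 9.67, 51.5 and 28.4 FPKM in HU1, HU2 and HU3. Eci2, with 11.2 to 12.2 FPKM in ground controls and 6.32 to 11.2 FPKM after unloading, had groups that just did not overlap.

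All 6 peroxisomal genes had differences below 0, from -1.76 to -0.69, with the lowest median of the 7 roles (-1.08). Of all genes 51.8% were below 0. With the mitochondrial share as a covariate Acox2 had 0.46 and Hsd17b4 0.18, while Acox3, Ehhadh, Acaa1a and Acaa1b stayed below 0 in all 19 alternatives. The summed level of the 6 genes averaged 273.3 ± 77.7 FPKM in ground controls against 112.6 ± 17.6 FPKM after unloading (SD, n = 3 each), or 41.2%. For the carnitine shuttle and entry genes the same share was 55.4%, and for the later mitochondrial steps 75.9%. These shares were set side by side without a test of their difference.

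Acox3, a peroxisomal acyl-CoA oxidase that acts on branched chains, lies on chromosome 5 (35583040 to 35615352, plus strand; ENSMUSG00000029098). It had 12.8, 9.54 and 10.8 FPKM in ground controls, 1.45, 2.59 and 3.99 FPKM in HU1, HU2 and HU3, and 10.5, 11.9 and 5.72 FPKM in PBA1, PBA2 and PBA3. The unloaded libraries were the 3 lowest of the 9, and PBA3 came next. The log2 difference was -1.76 ± 0.34 (SE; limma adjusted p = 0.0186), with adjusted p from 0.00560 to 0.147 over the 19 alternatives, of which 14 kept the call. With 93 to 312 reads, the 95% exact Poisson intervals of the unloaded libraries ran from 1.18 to 1.77, from 2.09 to 3.18 and from 3.56 to 4.46 FPKM, and these cover counting error only. Of its exonic bases 700 of 11521 overlap the antisense gene 4931431C16Rik.

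Acaa1b, a peroxisomal thiolase, lies on chromosome 9 (119148023 to 119157093, minus strand; ENSMUSG00000010651). It had 109.6, 101.6 and 69.2 FPKM in ground controls, 15.4, 30.8 and 38.6 FPKM in HU1, HU2 and HU3, and 82.8, 80.8 and 52.6 FPKM in PBA1, PBA2 and PBA3. The groups did not overlap, with GC3 and PBA3 the lowest of theirs, and the log2 difference was -1.76 ± 0.38 (SE; limma adjusted p = 0.0249), with adjusted p from 0.0113 to 0.178 over the 19 alternatives, of which 14 kept the call. Its paralog Acaa1a, nearby on the same chromosome (119339676 to 119350299, plus strand), had 27.98, 24.2 and 24.4 FPKM in ground controls, 6.75, 18.8 and 16.7 FPKM in HU1, HU2 and HU3, and 23.4, 29.0 and 22.4 FPKM in PBA1, PBA2 and PBA3. Here too the groups did not overlap, but HU2 and HU3 were nearer to ground controls than HU1, and the log2 difference was -0.93 ± 0.35 (SE; limma adjusted p = 0.116). Of the 50-base words of Acaa1b transcripts, 30.5% also occur in other genes, mainly Acaa1a, so reads could be split between the copies.

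Ehhadh, the peroxisomal bifunctional enzyme and a well-known PPAR alpha target, had 104.1, 139.4 and 46.2 FPKM in ground controls, 47.4, 37.7 and 40.8 FPKM in HU1, HU2 and HU3, and 74.9, 66.0 and 35.3 FPKM in PBA1, PBA2 and PBA3. GC1 and GC2 were high, GC3 lay within the unloaded range and PBA3 below it. The log2 difference was -1.05 ± 0.43 (SE; limma adjusted p = 0.140). Hsd17b4, the second bifunctional enzyme, had -0.69, and Acox2, an oxidase for branched chains and bile acid intermediates, -1.11, with 4.21 to 7.03 FPKM in unloaded libraries, 20.5 and 17.6 FPKM in PBA1 and PBA2 and 2.73 FPKM in PBA3.

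**Figure D3:**
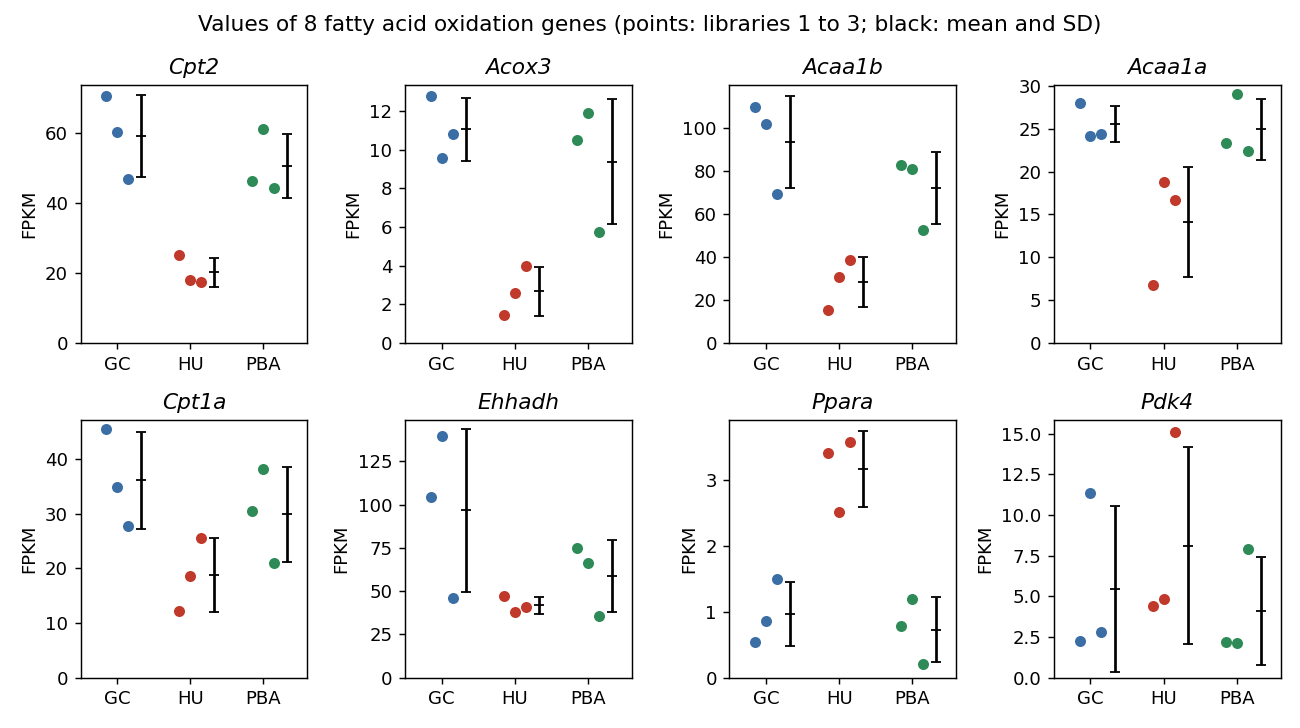
FPKM of 8 genes in ground controls (GC), unloaded (HU) and 4-PBA-treated unloaded (PBA) libraries: points are libraries 1 to 3 from left to right, black marks are the mean with SD, and each axis starts at 0. For Cpt2, Acox3, Acaa1b and Acaa1a all unloaded points lie below all others, while for Cpt1a and Ehhadh the last PBA point (20.9 and 35.3 FPKM) is as low as unloaded ones.

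None of the 3 regulators passed the test for unloading. Ppara had 0.536, 0.860 and 1.5 FPKM in ground controls, 3.40, 2.51 and 3.57 FPKM in HU1, HU2 and HU3, and 0.783, 1.19 and 0.209 FPKM in PBA1, PBA2 and PBA3. Every unloaded library lay above the other 6, but the log2 difference of 1.10 ± 0.31 (SE) missed the threshold (limma adjusted p = 0.0534). It passed in 6 of 19 alternatives, among them the fit without PBA3 (limma adjusted p from 0.0243 to 0.383 over the alternatives). The level is low: HU2 had 30 reads and PBA3 5, with 95% exact Poisson intervals of 1.70 to 3.59 FPKM and 0.0679 to 0.488 FPKM. Ppara reached 1 FPKM in only 2 libraries outside the unloaded group, GC3 and PBA2. It thus passed the filter on low values only through the unloaded libraries, the group where it is high. Its p-values and calls throughout are given as a description only. On the scale of total reads Ppara was 0.47 log2 units higher after unloading. Ppargc1a had 3.89, 3.98 and 4.32 FPKM in ground controls, 3.81, 5.31 and 7.18 FPKM in HU1, HU2 and HU3, and 5.67, 4.45 and 2.94 FPKM in PBA1, PBA2 and PBA3. These groups overlapped (log2 difference 0.31 ± 0.28, SE; limma adjusted p = 0.489), and on the scale of total reads the difference was -0.54.

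Pdk4, which holds back glucose oxidation when fatty acids are burnt and is a PPAR alpha target, varied more between libraries of a group than between groups. It had 2.25, 11.3 and 2.78 FPKM in ground controls, 4.39, 4.85 and 15.1 FPKM in HU1, HU2 and HU3, and 2.20, 2.14 and 7.90 FPKM in PBA1, PBA2 and PBA3. High values were found in 1 library of each group, GC2, HU3 and PBA3, and the log2 difference after unloading was 0.58 ± 0.63 (SE; limma adjusted p = 0.573). The 8 adipocyte markers summed to 163.8 FPKM in GC2 and 173.1 FPKM in PBA3, against 8.23 to 21.95 FPKM in the other 7 libraries, among them 16.1 FPKM in HU3. Acsl1, abundant in fat, was also highest in GC2 and PBA3, at 12.5 and 11.0 FPKM. The part of fat in these 2 libraries was not tested.

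The second comparison asked how 4-PBA-treated unloaded kidneys differed from vehicle-treated ones. Cpt2 rose with 4-PBA, by 1.29 ± 0.27 on the log2 scale (SE; limma adjusted p = 0.0432), and the groups did not overlap. It was the only member called, 1 of 31 (3.23%), where 2.69% of all genes were called. Higher with 4-PBA were 1.16% of all genes, and 0 members fell, where 1.53% of all genes did. The difference was below 0 in 9 of 31 members, against 48.8% of all genes, and the members' median was 0.24 against 0.02. Entering the mitochondrial share as a covariate turned that median to -0.30, and without PBA1 it was 0.019. At an unadjusted p under 0.05 in limma 5 members were higher and 2 lower, together 22.6% of them, where 20.1% of all genes were. Limma-voom on recovered reads called Cpt2 and Acox3 higher and 0 members lower, and 128 genes higher and 321 lower in all. Acox3 differed by 1.501 ± 0.34 (log2, SE; limma adjusted p = 0.0519), Acaa1b 1.38 ± 0.38 (SE; limma adjusted p = 0.0885) and Ppara -1.30 ± 0.31 (SE; limma adjusted p = 0.0603). In 5 members (16.1%) every treated library lay above every unloaded one: Cpt2, Crat, Acox3, Acaa1a and Acaa1b. That was so in 10.1% of all genes. Only Ppara (3.23%) had all treated libraries below, where 10.2% of all genes did.

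The call for Cpt2 depended on which libraries were in the fit, while its log2 difference ran from 1.01 to 2.23 over the 19 alternatives. The call was lost without any 1 of GC1, GC2, GC3, HU2, HU3, PBA1 and PBA2, and 5 of 19 alternatives kept it (limma adjusted p from 0.0201 to 0.171). Over all genes the 147 called higher became 36, 35, 43, 167, 78, 25 and 6 without these libraries, in that order. The ground controls act here through the common estimate of spread alone. Without PBA3, 4 members rose (Cpt2, Acox2, Acox3 and Acaa1b), while the count over all genes went from 147 to 672.

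PBA3 differed from the other treated libraries. It was the lowest of the 3 in 23 of 31 members (74.2%; 44.2% of all genes) and the lowest of all 9 libraries in 11 (35.5%; 16.4% of all genes). PBA1 lay above all 3 unloaded libraries in 17 members (54.8%; 27.5% of all genes) and PBA2 in 18 (58.1%; 30.8% of all genes). PBA3 did so in 8 (25.8%; 26.6% of all genes), and it lay below all of them in 13 (41.9%; 27.9% of all genes). GC3 was the lowest ground control in 23 of 31 members (74.2%; 41.7% of all genes). These shares were set side by side with no test. In both GC3 and PBA3, whose mitochondrial shares were 49.7% and 67.1%, 6 of 31 members (19.4%; 15.1% of all genes) were above every unloaded library: Cpt2, Etfb, Eci2, Acox3, Acaa1a and Acaa1b. In 7 members (22.6%; 15.6% of all genes), which were Acadvl, Acads, Etfa, Etfdh, Echs1, Hadh and Ppara, both lay below every unloaded library.

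**Figure D4:**
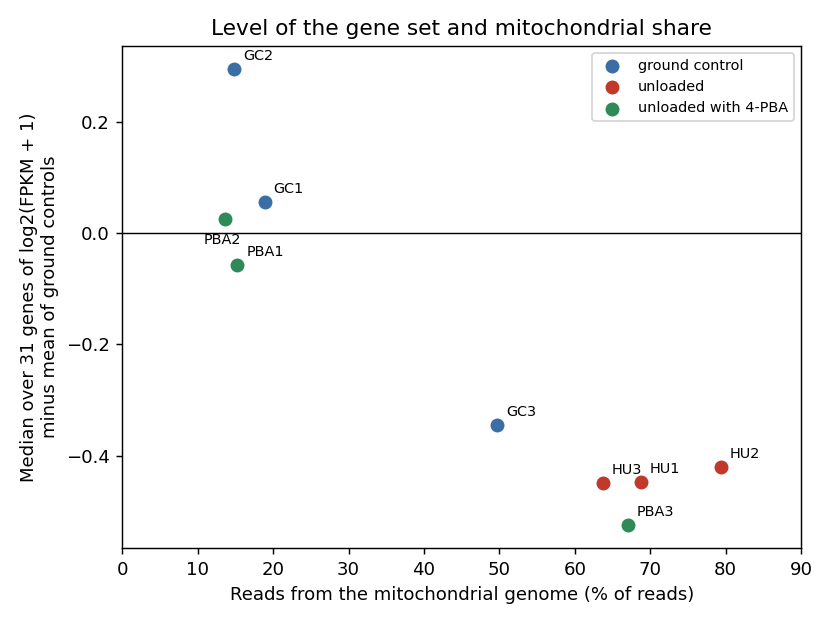
Each point is a library: its share of reads from the mitochondrial genome (x axis, %) and the median over the 31 genes of log2(FPKM + 1) minus the mean of ground controls (y axis). GC3 (-0.34) and PBA3 (-0.53) lie beside the unloaded libraries (-0.45 to -0.42), and the other 4 libraries lie between -0.06 and 0.30.

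No unloaded library had a mitochondrial share near that of GC1, GC2, PBA1 and PBA2, so no comparison could be made among libraries with a low share. With the share as a covariate 0 members passed for unloading and 0 for 4-PBA. Over all genes 48 were then called higher and 51 lower for unloading, and 49 and 72 for 4-PBA. The members' median difference after unloading became 0.09 in place of -0.47. Cpt2 then had a log2 difference of -1.20 after unloading (limma adjusted p = 0.102). Leaving out a ground control ended calls across the table: genes called lower went from 620 to 29, 117 and 50 without GC1, GC2 and GC3, and the members among them were 0, 0 and 1 (Cpt2). The members' median was then -0.45, -0.27 and -0.74. Without PBA3, 6 members fell (Cpt2, Crot, Acadl, Acox2, Acox3 and Acaa1b) and Ppara rose, while over all genes the counts became 1188 lower and 1172 higher.

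Between the 4-PBA-treated group and ground controls, 0 of 31 members passed in limma, as did 0 of 12642 genes (0%). At an unadjusted p under 0.05 there were 0 members and 165 genes in all, and limma-voom called 0. The groups overlapped in all 31 members, while of all genes 4.37% had every treated library above and 3.63% every one below. The difference was below 0 in 24 of 31 members, against 50.6% of all genes. The log2 differences ran from -0.73 (Crot) to 0.19 (Hadh), with a median of -0.23. This comparison shares its libraries with the other 2, so the 3 sets of values are not independent.

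Other genes of the pathway, from lists chosen with earlier results of these data known, were examined in the same fit. Of all genes tested 4.9% fell with unloading and 5.32% rose. Of 32 further oxidation enzymes and carriers 31 could be tested: 4 fell with unloading (12.9%) and 0 rose, with a median of -0.70. The 4 were Slc25a42, a mitochondrial CoA carrier (log2 difference -1.25), Acad10, a dehydrogenase (-1.497), Ech1, a dienoyl-CoA isomerase (-1.13), and Echdc2, a hydratase-like protein (-1.94). Of 33 other PPAR alpha targets 27 could be tested: 8 fell (29.6%) and 1 rose (3.7%), with a median of -0.89. Slc27a2, a fatty acid transport protein and acyl-CoA synthetase of the proximal tubule, had 555.9, 600.3 and 352.8 FPKM in ground controls, 37.5, 80.6 and 45.6 FPKM in HU1, HU2 and HU3, and 538.7, 495.7 and 127.6 FPKM in PBA1, PBA2 and PBA3. It fell by 3.22 on the log2 scale (limma adjusted p = 0.0146) and was 2.63 higher with 4-PBA (limma adjusted p = 0.0435). Cyp4a10 and Cyp4a31, fatty acid omega-hydroxylases with close paralogs, fell by 3.36 and 3.85. Vnn1, a pantetheinase, fell by 2.07 and Slc27a1, a fatty acid transporter, by 1.502.

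The target that rose was Fgf21, a fasting hormone, with 2.64, 6.76 and 3.88 FPKM in HU1, HU2 and HU3 (15 to 25 reads) and 0 reads in the other 6 libraries, which at 3 reads allows up to 0.126 to 0.506 FPKM per library. It passed the filter on low values only through the unloaded libraries, the group where it is high, so its 2 calls are given as a description only. With 4-PBA, 2 of the 27 targets (7.41%) rose, Cyp4a31 and Slc27a2, while Fgf21 fell (3.7%), and the median was 1.02. Of all genes 1.16% rose with 4-PBA and 1.53% fell. Among the 31 further oxidation genes 1 rose (3.23%), Slc25a42 (log2 difference 1.18). Of 26 nuclear receptors and coregulators only Esrrb, an orphan receptor, passed for unloading. It rose, 3.85% of the list, where 5.32% of all genes rose. Its level was 1.66 to 2.48 FPKM in ground controls against 4.68 to 9.48 FPKM after unloading (log2 difference 1.36, limma adjusted p = 0.0220). None of this list passed with 4-PBA in limma, where 2.69% of all genes did (smallest adjusted p for Esrrg, 0.0833, and Esrrb, 0.13). The medians of the list were 0.26 and -0.16.

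**Figure D5:**
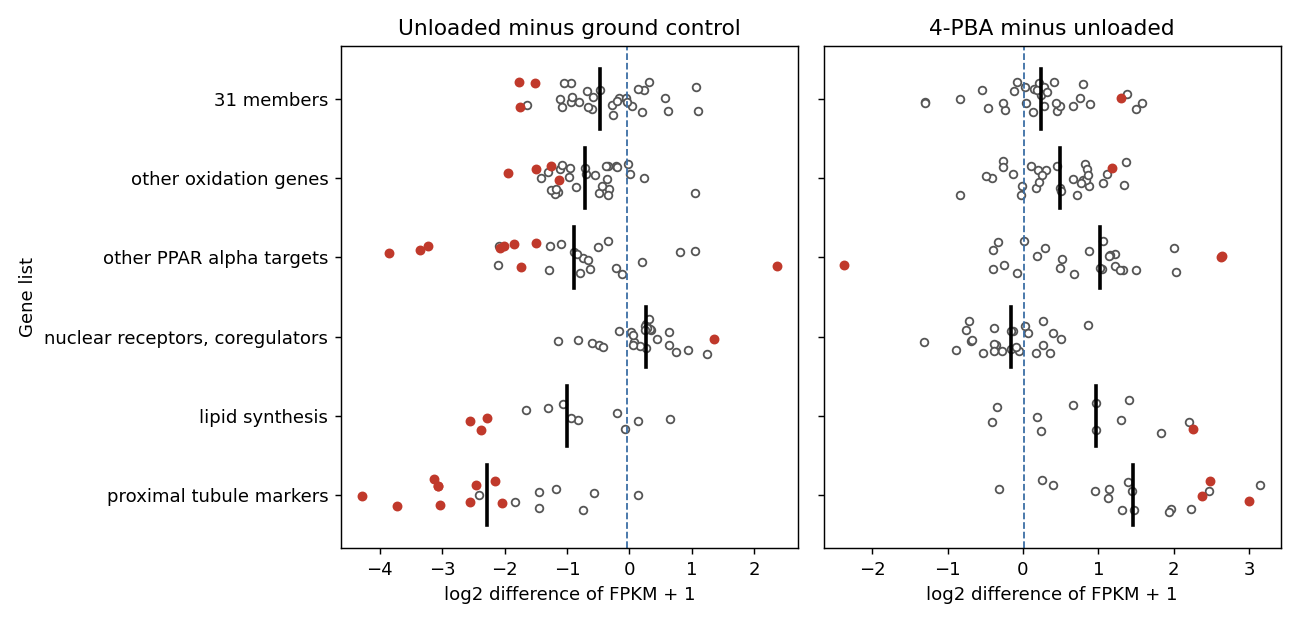
Log2 differences of FPKM + 1 for single genes (points, red past the threshold) in the 31 members and 5 other lists, with the list median as a black bar and the median of all genes as a dashed line. For unloading the list medians were -0.47 for the members, -0.70, -0.89, 0.26 and -0.997 for the next 4, and -2.29 for proximal tubule markers.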

How the data were processed

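Poly(A)-selected, dUTP strand-marked, paired-end libraries of kidney RNA were sequenced, per the labels' protocols. CASAVA, cutadapt and HISAT2 with mm10 are named in the submitters' processing notes; versions, the read counter and the use of strand are not stated there. The authors deposited FPKM values per gene and library, a unit named from the values themselves, which scale with gene length. Each value times the deposited gene length was a whole multiple of 1 constant per library for 100% of values above 0 (tolerance 0.01 reads), which gave the reads. The constant is no total, so sums of FPKM differ between libraries.

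All 9 libraries entered 1 fit of 3 groups in limma 3.58.1 (R 4.3.3) on log2(FPKM + 1), empirical Bayes with a trend, without a block. A gene was tested if 3 or more libraries had an FPKM of 1 or more, and a Benjamini-Hochberg adjusted p under 0.05 over these 12642 genes was called. Differences on this scale understate those of low genes, such as Ppara. SD is over libraries, SE from limma. No pair of replicates agreed within sampling noise (chi-square per degree of freedom from 22.6 to 138.9). The members and lists were chosen with earlier results of these data known. Values in every library are given for members past the threshold, for the 3 regulators and for Cpt1a, Acadm, Hadha, Ehhadh and Acaa1a; from other lists, members past the threshold, at most 6 a list by smallest adjusted p. Library values of Etfb, Slc27a2, Fgf21 and Dgat2 were added after their values were seen. Annotation was GENCODE mouse release M21, whose coordinates matched those of 28 of 31 members. Alternatives covered scaling, filter, pseudocount, samples, a replicate block, limma-voom, the mitochondrial share and libraries left out. The code was tested on simulated data. Figures used Python 3.11.15 and matplotlib 3.10.9.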

Additional observations from a re-analysis of the deposited data

How the results depend on the processing

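The count of 3 members lower after unloading was 6 with scaling by total reads and 1 with no low-value filter. A covariate for the mitochondrial share gave 0, and 8 were found without both PBA3 and GC3. Of all genes 620 were called lower in the main fit, and 2036, 99, 51 and 763 in these settings, in that order. Leaving out 1 library gave 0 to 6 members and 29 to 1188 of all genes. The count of 0 higher was 1 (Ppara) with scaling by non-mitochondrial reads, a pseudocount of 4, limma-voom and without both PBA3 and GC3. It was 2 (Acadvl and Ppara) with only the 6 libraries compared. Over all genes the 672 called higher became 871, 641, 845, 661 and 884 in these settings, in that order. With 1 library left out the members' count ran from 0 to 1 (Ppara, without PBA3), and that of all genes from 40 to 1172. Ppara passed the filter on low values only through the unloaded libraries, where it is high, so its calls here are a description only. The count of 1 higher with 4-PBA was 2 with scaling by total reads and with limma-voom, and 4 without both PBA3 and GC3. Over all genes the 147 called higher became 596, 128 and 587, in that order. The members' count was 0 with scaling by non-mitochondrial reads, without a filter and with a pseudocount of 0.1, where 126, 3 and 64 genes were higher. It was also 0 with only the 6 libraries compared and with the mitochondrial share as a covariate, where 2 and 49 genes were. With 1 library left out the members' count ran from 0 to 4, and that of all genes from 6 to 672. The count of 0 lower with 4-PBA ran from 0 to 1 with 1 library left out. The 1 was found without PBA1, where 51 of all genes were lower in place of 193. Between 4-PBA and ground controls the count was 0 in all 19 alternatives, for the members and for all genes.

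With the replicate number as a block, 3 members were lower after unloading and 0 higher with 4-PBA, where 440 and 54 of all genes were. The numbers are not stated to pair libraries: correlations of same-numbered libraries' deviations ran from -0.196 to 0.288, with 2 of 9 above 0.1, and a library correlated best with its own number in 3 of 18 cases.

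Scaling by total reads moved the median of all genes after unloading to -0.78 and that of the members to -1.40, a difference of -0.63 between them, against -0.44 as reported and -0.40 with scaling by non-mitochondrial reads. It reversed Slc25a20 (-0.34 for unloading, 0.33 for 4-PBA), Ppargc1a (-0.54 for unloading) and Etfdh (0.40 for 4-PBA). The mitochondrial share as a covariate reversed, for unloading, Crot (0.26), Acadm (0.53), Decr1 (0.0168), Acox2 (0.46), Hsd17b4 (0.18) and the members' median (0.0918), and for 4-PBA Acadl (-0.0935), Acaa2 (-0.0157), Decr1 (-0.18) and Acox2 (-0.61), and turned the members' median from 0.24 to -0.30. None of these values passed in limma, and the cause was not tested. A further 68 sign changes concerned values within 1 SE of 0. Of 1178 single-gene values under the 19 alternatives, 1109 kept their side of the threshold without such a reversal. Most of these were not called in the main fit, so the count says little about the calls. A call was lost in 27 values and gained in 29. For unloading Cpt2, Acox3 and Acaa1b kept theirs in 16, 14 and 14 of 19 alternatives, and Cpt2 for 4-PBA in 5. With 3 libraries a group and 133 to 357 reads behind Cpt2 in unloaded libraries, the number of libraries and the spread between them limit what can be called.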

Other observations

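Of 12 genes of fatty acid and triglyceride synthesis 3 fell with unloading (25.0%) and 0 rose in limma, with a median log2 difference of -0.997. Of all genes 4.9% fell and 5.32% rose. Dgat2, which makes triglyceride, had 36.0, 38.2 and 19.1 FPKM in ground controls, 3.26, 5.73 and 4.06 FPKM in HU1, HU2 and HU3, and 21.5, 35.1 and 18.4 FPKM in PBA1, PBA2 and PBA3. It fell by 2.55 on the log2 scale after unloading (limma adjusted p = 0.00745) and was 2.25 higher with 4-PBA (limma adjusted p = 0.0159), with groups that did not overlap. Dgat1, the other enzyme of that step, fell by 2.27 and Mlxipl, the glucose-sensing factor ChREBP, by 2.38. Dgat1 was listed at 0 in HU1 and was highest in PBA3, at 16.3 FPKM. The list summed to 223.8 FPKM in GC2 and 177.6 FPKM in PBA3, the libraries with high adipocyte markers, and to 91.8 to 107.0 FPKM in GC1, GC3, PBA1 and PBA2, against 37.9 to 60.0 FPKM in unloaded libraries. The part of fat was not tested. This list too was chosen with earlier results of these data known.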
